A study of Mus musculus with 27 samples.

Results

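The Zfp genes are mouse genes for zinc finger proteins that carry no name other than Zfp and a number. Members were taken as the rows of the deposited count tables whose symbol is Zfp and digits, with a mean of at least 5 CPM (reads per M reads assigned to genes) over the 27 libraries. Zfp36, whose protein binds RNA through another kind of zinc finger, was left out. This left 227 members, out of 333 Zfp rows and 24000 gene rows in all, and all 227 passed the filter on low counts. The members were thus chosen by their mean level, which is described here without a test. Of the members, 206 reached 5 CPM in the mean of every group and 21 lay under it in at least 1 group. Just inside the limit lay Zfp937 at 5.03 CPM, Zfp39 at 5.11 and Zfp873 at 5.29, and just outside lay Zfp420 at 4.94, Zfp456 at 4.91 and Zfp526 at 4.83.

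Most proteins of this family hold arrays of C2H2 fingers, in which a pair of cysteines and a pair of histidines hold a zinc ion and each finger reads a few bases of DNA. Many of them also carry a KRAB box, a repression domain that recruits the co-repressor TRIM28. TRIM28 in turn brings the histone methyltransferase SETDB1 and heterochromatin protein, and such complexes are known for silencing transposable elements and for keeping imprinted regions silent. KRAB zinc finger genes multiplied by local duplication and lie in clusters.

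The libraries hold polyA RNA of Ba/F3, a mouse cell line labelled pro-B that grows in the presence of IL3. Wild type was sampled after 6 h without IL3 (n = 5 libraries) and after 6 h without it followed by 30 min with IL3 at 10 ng/mL (n = 5). Cells with a lentiviral short hairpin, kept in puromycin, were all deprived for 6 h and given IL3 for 30 min in the same way, and carried a hairpin without a target (n = 5) or 1 labelled shSTAT5a, shSTAT5b, shLSD1 or shHDAC3 (n = 3 each). The IL3 receptor signals through the transcription factors STAT5A and STAT5B, LSD1 (gene Kdm1a) is a histone demethylase, and HDAC3 is a histone deacetylase. All groups come from 1 cell line, and the labels give 1 construct name per target, so an effect of a hairpin beyond its target cannot be told apart from that of the target. The labels call the libraries biological replicates and do not say how the cultures were separated, so p-values measure the spread between these libraries.

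Libraries held 5.48 to 33.8 M reads counted in genes. Reads that mapped but were assigned to no gene are the no_feature reads. Which parts of genes were counted is not given, so these reads need not lie outside genes. Their share, as a percentage of no_feature plus counted reads, was 14.2 to 25.1% in 5 libraries and 8.82 to 12.1% in the other 22. The 5 were no-target replicates 1 and 3, LSD1 knockdown replicate 1 and HDAC3 knockdown replicates 1 and 2, and they also had the fewest counted reads, 5.48 to 7.53 M against 8.47 to 33.8 M. Each hairpin group held less of its own target than all no-target libraries: Stat5a 23.7 to 27.5 against 50.5 to 92 CPM, Stat5b 29.3 to 36 against 95.3 to 134, Kdm1a 55.4 to 103 against 129 to 156, and Hdac3 44.8 to 83.9 against 98 to 156. Of 11 B lineage markers, Cd79a and Cd79b reached 5 CPM and 9 lay under 1 CPM, among them Ebf1 and Pax5, so the labelled pro-B identity rests on few of its defining genes here. All 3 IL3 receptor genes reached 5 CPM, as did 3 of 8 myeloid markers (Lyz2, Mpo, Prtn3), 3 of 5 of the mast or basophil list (Cpa3, Mcpt8, Gata2), 3 of 5 erythroid ones (Gata1, Klf1, Epor) and 0 of 5 of the T lineage. Kit and Fcer1a lay under 1 CPM and the globin genes Hba-a1 and Hbb-bt at 0, so none of these lists was present as a whole except the receptor.

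Levels per library are given below in CPM with TMM scaling (the trimmed mean of M values), which evens out differences in library make-up. Over all libraries the members had a median mean level of 25.15 CPM and ranged from 5.03 to 324.6 CPM. A total of 45 lay at 5 to 10 CPM, 141 at 10 to 50 and 41 at 50 or more, of which 10 were above 100. The highest by CPM were Zfp207 (324.6 CPM), a spindle protein that binds microtubules and Bub3, Zfp91 (232.5), an E3 ubiquitin ligase, Zfp445 (173.1), a KRAB protein that guards imprinted regions, Zfp706 (152.8), Zfp622 (146.1), a factor in maturation of the large ribosomal subunit, and Zfp740 (143.7). Per kilobase of the transcript with the longest coding sequence the order was different, with Zfp207 first at 208 CPM per kb, then Zfp740 at 145, Zfp414 at 77.4 and Zfp622 at 52.1. Zfp91 then stood at 42, Zfp706 at 34.6 and Zfp445 at 28 CPM per kb, against a median of 7.44 over the 224 members with a transcript in the annotation. The transcripts used for Zfp207 (1562 bases) and Zfp740 (989 bases) have annotated 3′ UTRs of 19 and 0 bases, so their values per kb depend on which transcript is taken. The most even members over the 7 group means were Zfp788, Zfp386 and Zfp7, with coefficients of variation of 0.0388, 0.04 and 0.0417. The least even were Zfp369 (0.688), Zfp398 (0.613) and Zfp169 (0.579). Zfp398 and Zfp169 averaged under 5 TMM-scaled CPM over the 22 libraries of low no_feature share and met the rule with the other 5 included, so the rule itself favoured uneven levels there.

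By annotation (GENCODE vM21, GRCm38/mm10), the members' proteins held a median of 10 C2H2 fingers by pattern, from 0 to 36. No finger was found in Zfp330, Zfp503, Zfp703, Zfp839 and Zfp935, of which Zfp503 and Zfp703 belong to a co-repressor family with an atypical finger. A KRAB box was found in 118 of 224 members (52.7%), against 1.85% of all genes tested that have a transcript. KRAB members had a median of 12 fingers and the 106 without the box had 7. Transcripts of members had a median of 3362.5 bases and 46.3% GC, against 2885 bases and 50.7% over all genes. The low GC content lay with the KRAB members, at a median of 42% against 52% without the box. Chromosome 7 held 57 members and chromosome 17 held 30, and 100 members lay within 100 kb of another. By whole gene span, on either strand, 37 members overlapped another coding gene, so their counts may depend on how reads in shared sequence were assigned. The deposited counts set ambiguous reads apart in a summary row, and the counting mode is not given in the sources used here.

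IL3 given to wild-type cells for 30 min changed 22 Zfp genes in the fit of all libraries, 13 of them KRAB genes that fell. In a fit of the wild-type libraries alone, paired by replicate, 83 changed, with 23 KRAB genes that fell and 21 that rose. By edgeR's quasi-likelihood test with Benjamini-Hochberg adjustment over 12073 genes, 22 of 227 members (9.69%) were called, against a background of 3.82% of all genes. Of these, 8 were higher with IL3 (3.52% of members, background 3%) and 14 were lower (6.17%, background 0.82%). The median log2 fold change of the members was -0.03 and that of all genes -0.02, so the family as a whole was centred where the other genes were. Of the 14 lower members 13 carry a KRAB box, and of the 8 higher members 3 do. Among the 118 KRAB members 3 rose and 13 fell (11%), and among the 106 without the box 5 rose and 1 fell (0.943%). The difference between these shares was not tested. In bulk RNA, fewer cells with a transcript and less of it per cell cannot be told apart. All 22 moved the same way in 5 of 5 same-numbered pairs of the libraries they were called on, as did 105 of all 227 members (46.3%).

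**Figure D1:**
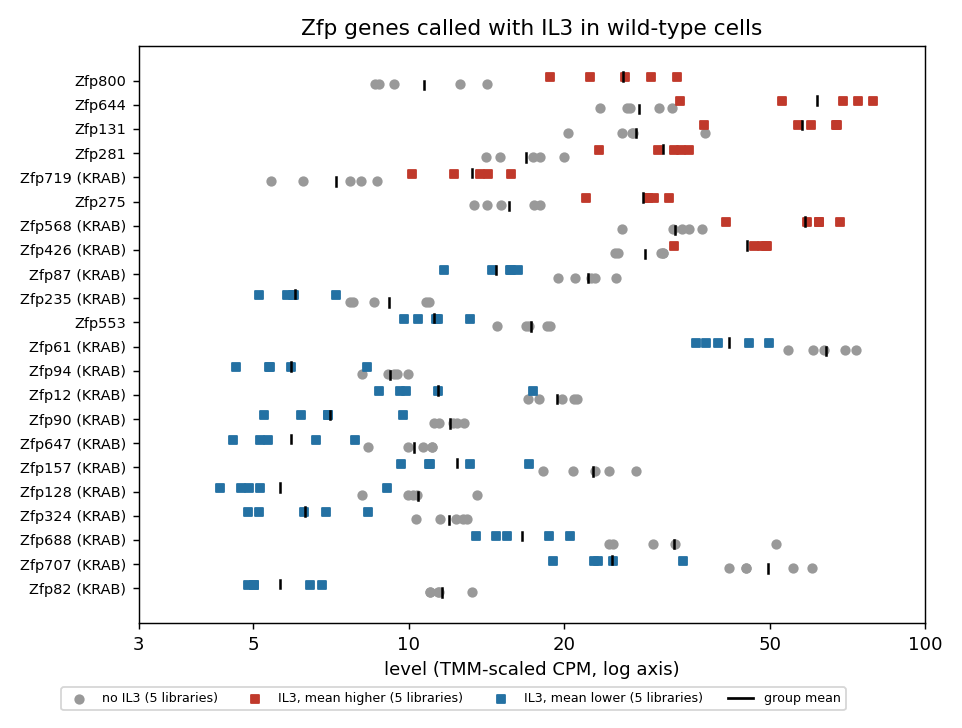
Levels of the 22 Zfp genes called with IL3 in wild-type cells, in CPM after TMM scaling on a log axis, 1 point per library (n = 5 per group) and a bar at each group mean. The 8 genes that rose are at the top and the 14 that fell are below, ordered by log2 fold change, and the points of both groups overlap for Zfp131, Zfp12, Zfp128 and Zfp94.

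The genes that rose were led by members without a KRAB box. Zfp800 (chromosome 6, 28239927 to 28398005, minus strand, 6 fingers) stood at 12.6, 14.2, 8.77, 9.36 and 8.62 CPM in deprived replicates 1 to 5 and at 18.8, 33, 26.2, 22.4 and 29.5 CPM in stimulated replicates 1 to 5. Every stimulated library lay above every deprived one, with a log2 fold change of 1.28 (SE 0.35, adjusted p = 0.0351). Zfp644 (chromosome 5, 106616739 to 106697287, minus strand), a partner of the histone methyltransferases G9a and GLP, stood at 30.6, 32.3, 26.4, 26.9 and 23.5 CPM without IL3 and at 33.5, 79.1, 52.7, 74.1 and 69.2 CPM with it. Its stimulated replicate 1 was little above the deprived libraries and the other 4 were clearly higher, with a log2 fold change of 1.14 (SE 0.27, adjusted p = 0.0144). Zfp131, a BTB domain factor on chromosome 13 (119765187 to 119790889, minus strand), had the smallest adjusted p of the risers.
Its levels were 27.1, 37.5, 20.3, 27.2 and 25.9 CPM without IL3 and 37.4, 67.5, 60.1, 56.7 and 67.2 CPM with it, a log2 fold change of 1.07 (SE 0.19, adjusted p = 0.00111). Deprived replicate 2 and stimulated replicate 1 overlapped, and no other libraries did.

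Zfp281, a repressor known from the exit from pluripotency, rose from 16.9 ± 2.37 to 31 ± 4.59 CPM (SD, n = 5 each; log2 fold change 0.87). Zfp275 on the X chromosome rose from 15.6 ± 2.03 to 28.4 ± 3.74 CPM (0.86). Both had every stimulated library above every deprived one. The 3 KRAB genes that rose were Zfp719, Zfp568 and Zfp426. Zfp719 (13 fingers) stood at 8.07, 8.66, 5.41, 7.7 and 6.24 CPM without IL3 and at 10.2, 15.8, 14.2, 12.3 and 13.7 CPM with it (log2 fold change 0.87, SE 0.23, adjusted p = 0.0327). Zfp568, which silences a placental transcript of Igf2 in the embryo, stood at 33.9, 34.9, 25.9, 32.5 and 36.9 CPM without IL3 and at 41.1, 62.2, 58.9, 62.3 and 68.4 CPM with it (0.84, SE 0.21, adjusted p = 0.0238). In both genes stimulated replicate 1 was the lowest of the stimulated libraries and still above the deprived ones. Zfp426 rose from 28.7 ± 3.13 to 45.2 ± 7.11 CPM (0.65).

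Among the called members Zfp82 and Zfp707 had the largest falls. Zfp763, with a log2 fold change of -1.06, did not pass (adjusted p = 0.0751) and passed with the replicate block (-1.07, adjusted p = 0.00824); it is named after its values were seen. Zfp82 (chromosome 7, 30054489 to 30072900, minus strand, KRAB, 12 fingers) stood at 11, 11, 11.4, 13.2 and 11.4 CPM in deprived replicates 1 to 5 and at 6.78, 4.89, 5.02, 6.44 and 5.02 CPM in stimulated replicates 1 to 5. The groups were far apart, with a log2 fold change of -1.04 (SE 0.19, adjusted p = 0.00103). Zfp707 (chromosome 15, 75969123 to 75975868, plus strand, KRAB, 7 fingers) stood at 41.6, 45, 60.4, 45 and 55.6 CPM without IL3 and at 33.9, 23.3, 24.9, 19 and 22.9 CPM with it (-0.996, SE 0.22, adjusted p = 0.00809). Again no stimulated library reached the deprived range. Zfp157, a KRAB gene known from mammary gland development, stood at 24.5, 20.8, 18.2, 27.5 and 22.9 CPM without IL3 and at 17.1, 9.65, 13.2, 11 and 11 CPM with it (-0.88, SE 0.18, adjusted p = 0.00489).
Stimulated replicate 1 was the highest of its group for Zfp157, as it was for Zfp707 and Zfp82.

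Several of the falling KRAB genes ended near the lower limit of the members. Zfp128 stood at 9.95, 10.2, 8.12, 13.6 and 10.4 CPM without IL3 and at 9.09, 4.3, 5.15, 4.74 and 4.91 CPM with it (log2 fold change -0.88, SE 0.24, adjusted p = 0.0325). Here stimulated replicate 1 lay inside the deprived range while the other 4 lay far under it. Zfp94 stood at 9.51, 8.11, 9.37, 9.98 and 9.11 CPM without IL3 and at 8.29, 4.63, 5.91, 5.36 and 5.39 CPM with it (-0.63, SE 0.17, adjusted p = 0.0364), and again replicate 1 alone overlapped the deprived libraries. Zfp324 fell from 12 ± 1.07 to 6.31 ± 1.41 CPM (-0.92), Zfp647 from 10.2 ± 1.15 to 5.91 ± 1.33 (-0.79) and Zfp90 from 12 ± 0.662 to 7.03 ± 1.68 (-0.77). Higher up, Zfp688 fell from 32.6 ± 11 to 16.6 ± 2.9 CPM (-0.97) and Zfp12 from 19.4 ± 1.86 to 11.4 ± 3.49 (-0.76). The other 4 were Zfp87, Zfp235, Zfp61 and Zfp553, of which Zfp553 is the one without a KRAB box, with log2 fold changes from -0.62 to -0.59. Of the 57 members on chromosome 7, 2 rose and 8 fell (17.5% called, against 9.69% of all members and 3.82% of all genes). On chromosome 17, 0 of the 30 members were called by edgeR and 4 had an unadjusted p under 0.05. With the replicate block 25 of 57 on chromosome 7 (11 higher, 14 lower) and 5 of 30 on chromosome 17 (3 higher, 2 lower) were called. These are 43.9 and 16.7%, against 36.6% of all members and 22.4% of all genes. The same fit called 10 of 16 members on chromosome 8, 8 of 14 on chromosome 9 and 4 of 17 on chromosome 13. The difference between chromosomes was not tested. Zfp61 and Zfp94 are close neighbours on chromosome 7 (24291039 to 24301232 and 24301704 to 24316666, both minus strand), and 3 of the 22 called members overlap another coding gene.

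The number called depended on the fit. Same-numbered wild-type libraries deviated together, and in a fit of the 2 wild-type groups that blocks on the replicate number 83 members (36.6%) were called, 42 higher and 41 lower, against 22.4% of all genes (13.3% higher and 9.09% lower). All 22 members above were among them in the same direction. This fit also leaves out the hairpin libraries, and the count for the 2 groups alone without the block is given below. Under the block the falling share was 19.5% in KRAB members and 16% in members without the box, so the split by KRAB box was much narrower there. The rising shares were 17.8 and 19.8%, in the same order. Leaving out stimulated replicate 2, 3, 4 or 5 left 7, 10, 8 and 9 members called, and leaving out deprived replicate 1, 4 or 5 left 13, 10 and 11. The wild-type libraries had no_feature shares of 9.27 to 10.6% without IL3 and 9.3 to 10.7% with it.

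STAT5 proteins bind the palindrome TTCNNNGAA, which reads the same on both strands, so the promoters of the IL3-responsive members were searched for it. The windows came from RefSeq (GRCm38.p6) and ran from 250 bases before to 50 after each annotated start. The motif was found in 34 of 232 windows of the 188 members with an entry (14.7%), against 1600 of 20168 windows of all genes in the files (7.93%). Among the members that rose, 1 of 10 windows held it (Zfp719, with 7 of 8 genes matched), and among those that fell, 3 of 10 did (Zfp128, Zfp82 and Zfp94, with 10 of 14 matched). These 4 windows are shown because they are the ones with the motif among the called members. They lie on chromosome 7 at chr7:43579336-43579635 (Zfp719, plus strand), chr7:30072774-30073073 (Zfp82, minus), chr7:12880928-12881227 (Zfp128, plus) and chr7:24316617-24316916 (Zfp94, minus), and are written 5′ to 3′ along the gene with the motif in capitals.
Zfp719: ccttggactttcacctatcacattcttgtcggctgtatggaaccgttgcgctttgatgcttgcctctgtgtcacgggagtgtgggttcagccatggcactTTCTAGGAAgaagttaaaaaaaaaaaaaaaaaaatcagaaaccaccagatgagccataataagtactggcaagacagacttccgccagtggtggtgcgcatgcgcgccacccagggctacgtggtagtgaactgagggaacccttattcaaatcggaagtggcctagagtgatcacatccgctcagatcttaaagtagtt
Zfp82: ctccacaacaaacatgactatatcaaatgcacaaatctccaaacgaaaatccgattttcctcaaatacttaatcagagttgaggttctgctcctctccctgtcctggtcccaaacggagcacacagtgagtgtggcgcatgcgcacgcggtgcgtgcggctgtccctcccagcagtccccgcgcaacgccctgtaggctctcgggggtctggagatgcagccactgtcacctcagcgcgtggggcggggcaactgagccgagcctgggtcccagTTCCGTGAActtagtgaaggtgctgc
Zfp128: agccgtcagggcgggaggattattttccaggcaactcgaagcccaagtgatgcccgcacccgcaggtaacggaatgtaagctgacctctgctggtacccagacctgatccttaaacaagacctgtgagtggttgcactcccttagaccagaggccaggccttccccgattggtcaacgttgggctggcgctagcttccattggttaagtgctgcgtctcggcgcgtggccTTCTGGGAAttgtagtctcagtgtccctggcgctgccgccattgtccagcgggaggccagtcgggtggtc
Zfp94: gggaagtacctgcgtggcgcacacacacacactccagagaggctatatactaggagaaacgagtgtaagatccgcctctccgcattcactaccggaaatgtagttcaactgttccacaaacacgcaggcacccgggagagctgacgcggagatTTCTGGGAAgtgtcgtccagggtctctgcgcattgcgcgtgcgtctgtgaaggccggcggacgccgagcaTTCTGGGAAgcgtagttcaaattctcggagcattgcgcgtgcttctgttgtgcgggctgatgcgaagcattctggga
The motif began 150 bases before the start in Zfp719, 24 bases after it in Zfp82 and 20 bases before it in Zfp128, and Zfp94 held 2 matches, the first 97 bases before the start. The downstream end of the window lay in a GENCODE transcript of the gene for Zfp128 and Zfp94 but not for Zfp719 and Zfp82. Distances for Zfp719 and Zfp82 thus rest on the RefSeq start alone. In Zfp128 and Zfp94 the letters were TTCTGGGAA, which also form part of the element that the zinc finger activator ZNF143 is known to bind. Counted with its reverse complement, this spelling was found in 7 of the members' windows (3.02%) and in 253 windows of all genes (1.25%), all of which also match the palindrome. A match describes the letters in the window and was not tested for binding.

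No Zfp gene was called in any of the 4 knockdowns against the no-target hairpin. By edgeR's quasi-likelihood test with Benjamini-Hochberg adjustment, 0 of 227 members passed in each, against a background of 0.0663% of all genes with the STAT5A hairpin, 0.34% with STAT5B, 0.166% with LSD1 and 0.0248% with HDAC3. The same 5 no-target libraries served all 4 comparisons. At an unadjusted p under 0.05 stood 5 members with STAT5A (2.2%, all genes 8.42%), 20 with STAT5B (8.81%, 15.9%), 6 with LSD1 (2.64%, 6.71%) and 4 with HDAC3 (1.76%, 5.69%). DESeq2 called 1 member, Zfp512 with the STAT5B hairpin, and 0 in the other 3. Missing the threshold does not show that the levels were equal.

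**Figure D2:**
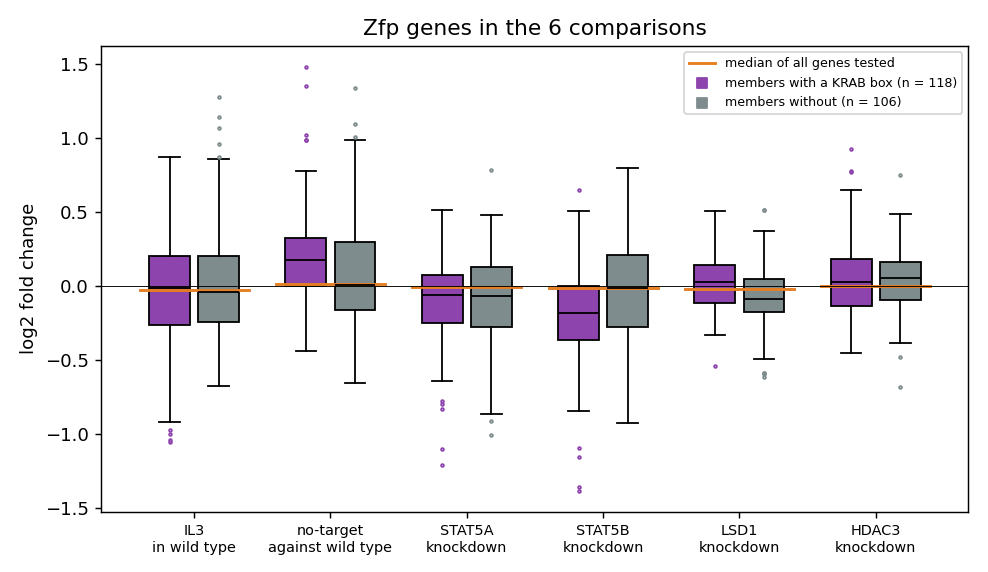
Log2 fold changes of the Zfp genes in the 6 comparisons (knockdowns against the no-target hairpin), as boxes for the 118 members with a KRAB box and the 106 without, with the median as a line, the quartiles as box ends, whiskers to 1.5 times the box height and single genes beyond as points, and an orange line at the median of all genes tested. KRAB members lie lowest with the STAT5B hairpin, with a median of -0.18, and highest in the no-target hairpin against wild type, with a median of 0.18.

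The 3 members with the smallest p in each knockdown are given with their log2 fold changes. With the STAT5B hairpin, Zfp512 stood at 59.5, 67.4 and 44.5 CPM against 83.4, 70.9, 81, 85.7 and 83.2 CPM in no-target replicates 1 to 5, a log2 fold change of -0.50 (SE 0.12, adjusted p = 0.0802). All 3 knockdown libraries lay under all 5 controls. Next came Zfp191 (-0.74, adjusted p = 0.156), known for its part in myelination, and Zfp764 (0.65, adjusted p = 0.217). With STAT5A the smallest p went to Zfp94 at 3.91, 3.94 and 3.92 CPM against 6.22, 5.21, 5.83, 4.92 and 5.83 CPM (-0.51, SE 0.21, adjusted p = 0.566), followed by Zfp821 (0.48) and Zfp667 (-0.51) at the same adjusted p. The Zfp94 values did not overlap, at levels where few reads are counted.

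With LSD1 the smallest p went to Zfp740 at 114, 79.6 and 133 CPM against 163, 144, 147, 134 and 142 CPM (log2 fold change -0.42, SE 0.15, adjusted p = 0.469), and then to Zfp35 (0.52) and Zfp653 (-0.42). The highest Zfp740 value with the hairpin lay just under the lowest control. With HDAC3 they were Zfp142 at 43.5, 28.9 and 30.1 CPM against 33.8, 21, 25.5, 22.1 and 22.4 CPM (0.46, SE 0.16, adjusted p = 0.693), Zfp865 (0.27) and Zfp784 (-0.39). The groups of Zfp142 overlapped.

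The members' median lay under 0 in 3 of the 4 knockdowns. The median log2 fold change was -0.07 with STAT5A (all genes -0.0043), -0.09 with STAT5B (-0.01), -0.04 with LSD1 (-0.02) and 0.04 with HDAC3 (0). With the STAT5B hairpin 149 of 227 members were negative, and 90 of the 118 KRAB members were, with a median of -0.18. Of all 12073 genes 6184 were negative there. Without the 5 libraries of high no_feature share the members' median became 0.05 with STAT5A, 0.02 with STAT5B, -0.03 with LSD1 and -0.11 with HDAC3, so the sign turned in 3 of the 4. That leaves 3 no-target, 2 LSD1 and 1 HDAC3 library, and the lone HDAC3 library is assumed to vary like the other groups.

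The members that IL3 moved in wild type were looked up in the knockdowns, where none of the wild-type libraries is used. Of the 8 that rose with IL3, 7 had a negative log2 fold change with STAT5A (median -0.27), 8 with STAT5B (-0.21) and 7 with LSD1 (-0.23), and 7 had a positive one with HDAC3 (0.22). Over all 227 members 136, 149 and 129 were negative and 136 positive, in the same order. These 8 also all stood higher with the no-target hairpin than in stimulated wild type, with a median of 0.48. Over all members 144 of 227 did, with a median of 0.12. Of the 14 that fell, 7 were negative with STAT5A, 8 with STAT5B, 1 with LSD1 (median 0.12) and 8 with HDAC3. None of these values passed the test, the knockdowns share their controls, and 5 of the 8 genes that rose with IL3 also rose with the no_feature share.

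Cells with the no-target hairpin differ from stimulated wild type by the lentiviral vector and its selection. No member was called there (background 0%), 37 members had an unadjusted p under 0.05 (16.3%, all genes 16.9%), and DESeq2 called 2 members, Zfp831 and Zfp661. Zfp831 stood at 10.5, 6.87, 17.7, 12.2 and 8.42 CPM with the hairpin and at 3.53, 3.91, 6.13, 4.5 and 3.91 CPM in wild type (log2 fold change 1.34, SE 0.34, adjusted p = 0.142 by edgeR). All hairpin libraries lay above all wild-type ones. Zfp661 stood at 59.3, 30.8, 55.8, 32.5 and 37.2 CPM against 11.8, 14.9, 32.5, 13 and 12.1 CPM (1.35, SE 0.38, adjusted p = 0.173), with wild-type replicate 3 inside the hairpin range. Its hairpin values of 59.3 and 55.8 CPM are from libraries of high no_feature share. Zfp831 and Zfp661 were both called as rising with that share, by 1.19 and 1.07 log2 units per 10 percentage points. Both were also called as rising over the 22 libraries of low share. Zfp410, the activator of the remodeller gene Chd4, stood at 68.6, 67.3, 67.7, 70.8 and 69.1 CPM against 77.2, 93.6, 78.4, 95.3 and 97.1 CPM (-0.36, SE 0.11, adjusted p = 0.2). Its groups did not overlap. The members' median was 0.12 (all genes 0.01) and 88 of 118 KRAB members were positive, against 51.3% of all genes. Without the 5 libraries of high no_feature share the members' median was -0.02.

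The share of counted reads on the 227 members followed the no_feature share of the library. Wild type held 0.708 ± 0.0582% without IL3 and 0.729 ± 0.0111% with it (SD, n = 5 each), the STAT5A knockdown 0.746 ± 0.0384% and the STAT5B knockdown 0.737 ± 0.0583% (n = 3 each). The no-target group held 0.831 ± 0.135% (n = 5), the LSD1 knockdown 0.8 ± 0.189% and the HDAC3 knockdown 0.885 ± 0.198% (n = 3 each). The SDs of these 3 groups, 0.135 to 0.198, were larger than those of the other 4, 0.0111 to 0.0583. In the 5 libraries of high no_feature share the members took 0.931 to 1.02% of counted reads, and in the other 22 they took 0.609 to 0.802%. The ranges did not overlap, and the 5 libraries lie in the 3 groups with the wide spread.

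**Figure D3:**
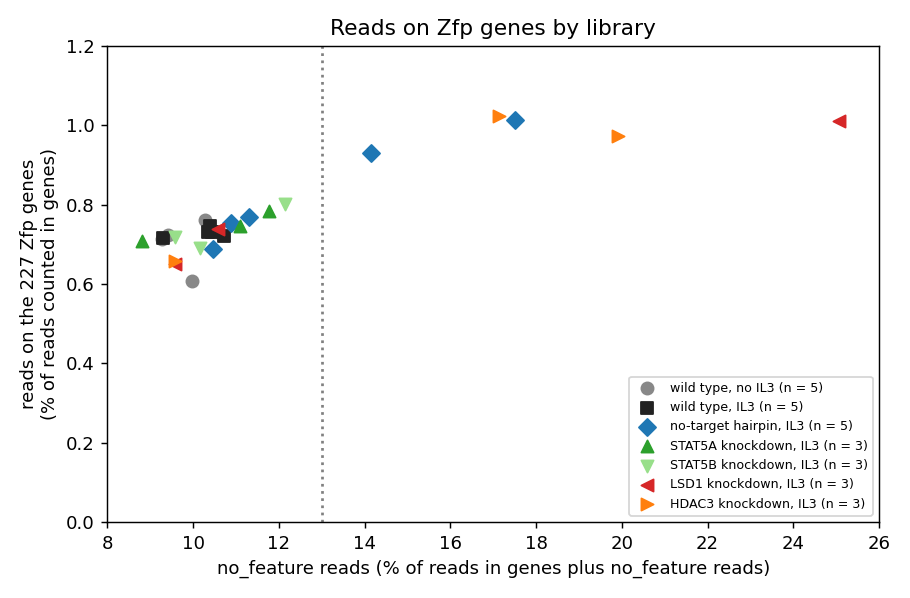
Reads on the 227 Zfp genes as a percentage of reads counted in genes (y axis, from 0) against the no_feature share of each library in percent (x axis), 1 point per library, marked by group, with a dotted line at 13%. The 5 libraries right of the line lie at 0.931 to 1.02% and the 22 left of it at 0.609 to 0.802%.

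Gene by gene, more members rose than fell with the no_feature share. With the no_feature share as a covariate beside the group means in edgeR's quasi-likelihood test, 123 members were called (54.2%, background 53%), which is near the background. Of these 97 rose (42.7%, background 24.9%) and 26 fell (11.5%, background 28%). The median slope was 0.26 log2 units per 10 percentage points of no_feature share for members and -0.03 for all genes. KRAB members made up much of the rise, with 60 rising and 3 falling of 118 (median 0.42), against 35 rising and 22 falling of the 106 without the box (median 0.10). Counts of reads are relative, so a slope says how a gene's share of counted reads moved and not how much RNA a cell held. Depth was lowest in the same 5 libraries, and with log2 counted reads as a further covariate 115 members were called.

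**Figure D4:**
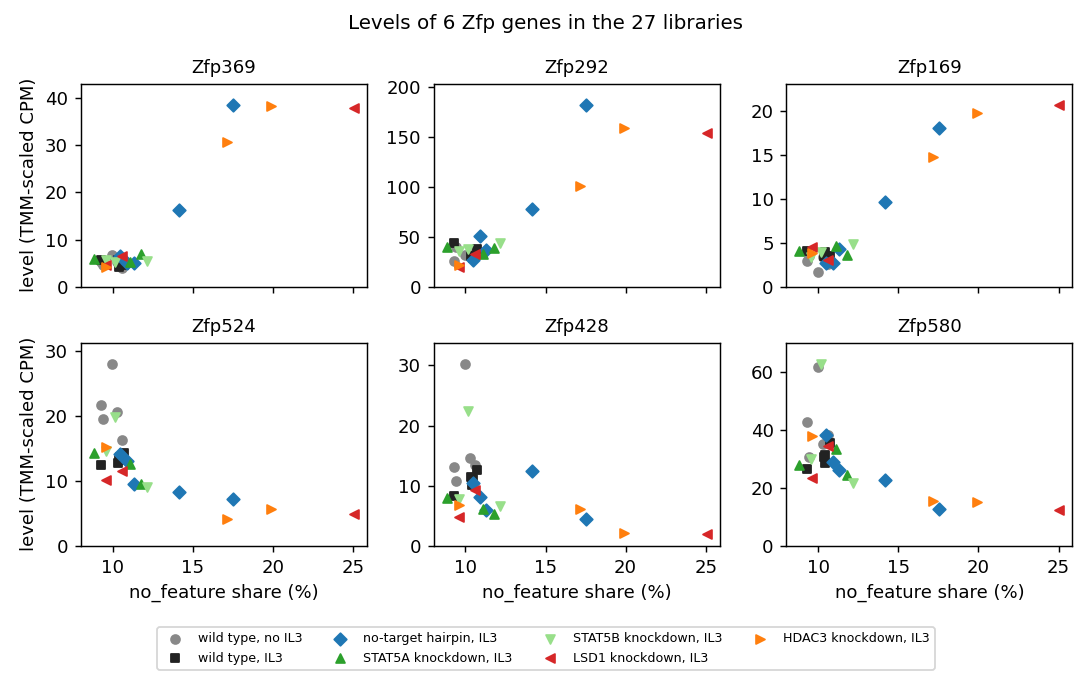
Levels of the 3 members with the steepest rise (Zfp369, Zfp292, Zfp169) and the 3 with the steepest fall (Zfp524, Zfp428, Zfp580) in TMM-scaled CPM (y axes, from 0) against the no_feature share in percent, 1 point per library, marked by group. The rising genes are higher in each of the 5 libraries above 13% than in all other 22 (Zfp292 at 77.8 to 182 against 20.5 to 50.8 CPM), and the falling genes are low in most of the 5. No-target replicate 1 of Zfp428 (12.4 CPM) and Zfp580 (22.8 CPM) and HDAC3 knockdown replicate 1 of Zfp428 (6.2 CPM) lie inside the range of the other 22.

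Zfp369, a KRAB gene on chromosome 13, had the steepest rise, 2.43 log2 units per 10 percentage points (SE 0.27, adjusted p = 4.49e-07). It stood at 16.4, 6.52, 38.4, 5.15 and 5.11 CPM in no-target replicates 1 to 5, at 37.9, 4.55 and 6.51 CPM in the LSD1 knockdown and at 30.6, 38.2 and 4.31 CPM in the HDAC3 knockdown. The 5 high values are the 5 libraries of high no_feature share. Zfp292, a long gene for a factor of neural development, stood at 77.8, 26.5, 182, 37.3 and 50.8 CPM in no-target replicates 1 to 5, at 155, 20.5 and 32.6 CPM with LSD1 and at 102, 159 and 22.1 CPM with HDAC3, a slope of 2.14 (SE 0.22, adjusted p = 3.92e-07). The same 5 libraries were highest.
Zfp169 (2.04), Zfp329 (2.00) and Zfp398 (1.87) followed, then Zfp933 (1.65), Zfp738 (1.45), Zfp609 (1.41), Zfp799 (1.36) and Zfp800 (1.33). Zfp169 stood at 9.59 to 20.6 CPM in the 5 libraries of high no_feature share and at 1.68 to 4.92 CPM in the other 22. A total of 6 members (Zfp169, Zfp398, Zfp39, Zfp619, Zfp873 and Zfp937) averaged under 5 TMM-scaled CPM over those 22 and met the rule with the 5 included. The rule used CPM without that scaling, so this count could differ on the scale of the rule. Of the 6, 5 are among the 97 called as rising, which the rule favoured.

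The 10 steepest falls were in members without a KRAB box, with transcripts of 693 to 2802 bases. Zfp524 fell by 1.11 log2 units per 10 percentage points (SE 0.20, adjusted p = 8.83e-05), with 8.24, 14.1, 7.22, 9.5 and 13.1 CPM in no-target replicates 1 to 5, 4.9, 10.2 and 11.6 CPM with LSD1 and 4.09, 5.64 and 15.2 CPM with HDAC3. In each of the 3 groups the libraries of high no_feature share were the lowest. Zfp428 fell by 1.10, Zfp580 by 1.10, Zfp296, a factor of cell reprogramming, by 0.95 and Zfp511 by 0.88. Zfp593 fell by 0.86 and Zfp622 by 0.82, both factors of the large ribosomal subunit, with Zfp579 (-0.85), Zfp414 (-0.83) and Zfp771 (-0.82) between them. Zfp622 stood at 119, 164, 96.6, 135 and 140 CPM in no-target replicates 1 to 5 and at 91, 233 and 143 CPM with LSD1. Its lowest values were again in the libraries of high no_feature share.

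Transcript length and GC content moved with the slope, in members and in all genes alike. All genes tested were put into 4 bins of equal size by transcript length. Among members in the longest bin (over 4348 bases) 71.4% rose and 3.17% fell, against 65.2 and 3.89% of all genes there. In the shortest bin (up to 1847 bases) 10% of members rose and 50% fell, against 3.41 and 64.3% of all genes. In the bins between them 17.2 and 45.8% of members rose, against 8.72 and 23% of all genes. In all 4 bins the share of rising members was above that of all genes, a difference that was not tested. By GC content, 60.4% of members rose in the lowest of 4 bins (all genes 42.7%) and 6.98% in the highest (all genes 11.1%). The 97 rising members had a median transcript of 4300 bases with 41.7% GC, and the 26 falling ones 1994 bases with 58.2% GC. The part of length and GC content in these slopes was not tested.

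**Figure D5:**
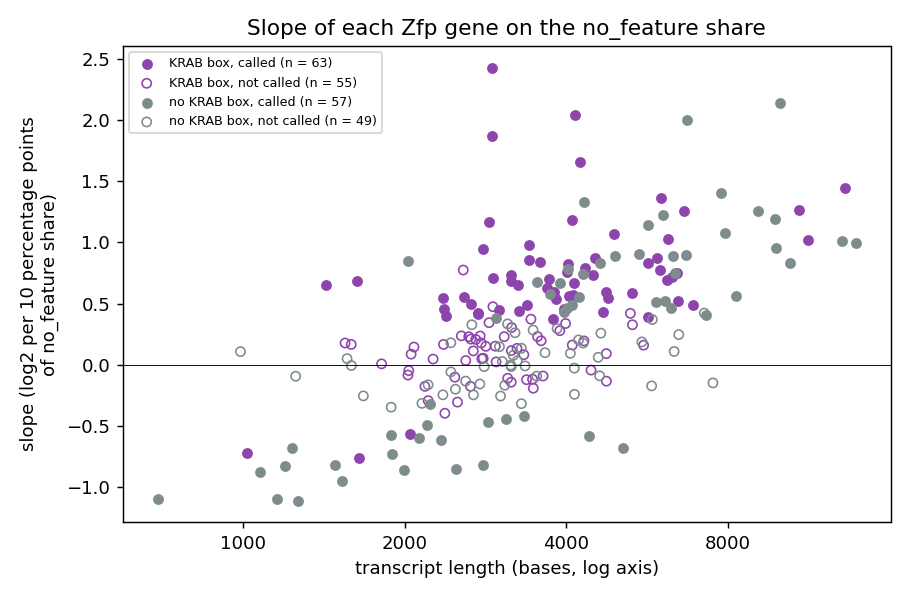
Slope of each of the 224 Zfp genes with an annotated transcript on the no_feature share (y axis, log2 units per 10 percentage points) against transcript length in bases (x axis, log scale), with filled points for genes called at an adjusted p under 0.05. Members of long transcripts lie mostly above 0 and those of short transcripts mostly below, and 63 KRAB members and 57 members without the box are called.

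Most calls were lost without the 5 libraries, and the direction was kept by KRAB members more than by members without the box. With the other 22 alone, whose no_feature share spans 8.82 to 12.1%, 10 members were called (background 4.38%), of which 7 rose (background 2.04%) and 3 fell (background 2.35%), and of the 123 called before 5 were called in the same direction and 20 had the opposite sign. One of the 20, Zfp106, was called in opposite directions, with a slope of 0.13 log2 units per percentage point over 27 libraries (adjusted p = 5.56e-05) and -0.18 over 22 (adjusted p = 0.0295). Zfp799 was the one of the 20 steepest members called there. The slope of Zfp369 was then -0.0070 per percentage point (adjusted p = 0.97). The members' median slope was 0.0298 per percentage point over 22 libraries and 0.0258 over 27, against 0.0037 and -0.0034 for all genes. KRAB members had a positive slope in 96 of 118 cases over 22 libraries and in 99 over 27, with medians of 0.0697 and 0.0418 per percentage point. Members without the box had one in 46 of 106 cases over 22 libraries and in 59 over 27. Their medians were -0.00887 and 0.00957, so their median changed sign. Over all genes 51.2 and 48% of slopes were positive, in the same order.

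The partners of KRAB proteins were followed as a list of 27 genes, of which 26 were tested. With IL3 0 of 26 were called by edgeR (background 3.82%), with 3 at an unadjusted p under 0.05 (11.5%, all genes 14%). With the replicate block 5 were called, 2 higher and 3 lower (19.2%, background 22.4%), so all of these shares were near or under the background. With the no_feature share over all 27 libraries 14 rose (53.8%, background 24.9%) and 4 fell (15.4%, background 28%). Over the 22 libraries of low share 0 of 26 were called as rising and 1 as falling (background 2.04 and 2.35%). Slopes were positive in 19 of 26 partners there and in 20 over 27 libraries. Over all 27 libraries Atrx, a remodeller of heterochromatin, rose by 0.19 log2 units per percentage point. Dnmt3a, a DNA methyltransferase, rose by 0.12 and Atf7ip, a partner of SETDB1, by 0.09. Trim28 itself, at a mean of 537 CPM, was among the 4 that fell, with a slope of -0.03 per percentage point (adjusted p = 0.0389). Its group means were 669 CPM in deprived and 550 CPM in stimulated wild type, a log2 fold change of -0.28 (SE 0.15, adjusted p = 0.437).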

How the data were processed

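RNA-seq libraries were made with the TruSeq RNA kit v2, per the labels' protocols. Each deposited file holds 1 library's read counts, as whole numbers by gene symbol, and ends in 5 summary rows, which entered neither library sizes nor tests. The submitters' processing notes name the build mm10 and the tools HTSeq 0.5.4p5, TopHat2 2.0.10, Trimmomatic 0.30 and DESeq2 1.2. The counting mode, strand setting and annotation are not given in the sources used here.

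All 27 libraries entered 1 edgeR fit (glmQLFit, robust, and glmQLFTest; edgeR 4.0.16, limma 3.58.1, R 4.3.3) with a mean per group, TMM factors and the filterByExpr filter, which left 12073 genes. Calls were made at a Benjamini-Hochberg adjusted p under 0.05 over all genes. CPM values are scaled by TMM factors, except in the member rule and in the mean levels over all libraries. The slope fit added the no_feature share. Positions, transcript lengths (of the transcript with the longest coding sequence), GC content, C2H2 patterns and KRAB boxes (a weight matrix score of at least 20 bits) were computed from GENCODE vM21, which matched 224 members; Zfp191, Zfp259 and Zfp607 had no match. Promoter windows are from RefSeq.

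The members, the lists and the tests were chosen with earlier results of these data known. Named are the 6 highest members, those nearest the limit of 5 CPM, up to 10 called members per direction and comparison with the largest change, otherwise the 3 with the smallest p, and those with the most and the least even levels; Zfp87, Zfp235, Zfp61 and Zfp553 and the genes outside the family complete a count, and Zfp763, Zfp106 and Zfp619 were chosen after their values were seen.

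Equal replicate numbers were checked through the correlation, across genes, of the libraries' deviations from their group means: r was 0.375 to 0.716 in the 5 wild-type pairs, so those were taken as pairs, and not all over 0.1 elsewhere. No 2 replicates were copies. The pipeline was tested on simulated data. Alternatives were DESeq2 1.42.0, factors by relative log expression (RLE), no filter, only the 2 groups compared, a replicate block, the no_feature share or log2 depth as covariate, a threshold of 0.01 and each library left out. Leaving out the 5 libraries above 13% no_feature reads, and a slope fit of only the 3 groups that hold them, were chosen after seeing the data.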

Additional observations from a re-analysis of the deposited data

Results flagged for a closer look

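In 80 groups of 5 libraries, 7 had 1 library further from the others than Dixon's 95% critical value, and chance flags about 1 in 20. Stimulated wild-type replicate 1 was the library in 3 of them, each time on the side of the deprived cells: Zfp128 stood at 9.09 CPM there against 4.3 to 5.15 CPM in the other 4, Zfp275 at 22 against 29.1 to 31.9 CPM, and Zfp426 at 32.6 against 46.5 to 49.3 CPM. Zfp661 stood at 32.5 CPM in stimulated wild-type replicate 3 against 11.8 to 14.9 CPM. Zfp738 stood at 23.1 CPM in no-target replicate 3, one of the libraries of high no_feature share, against 5.57 to 8.51 CPM. Zfp82 stood at 13.2 CPM in deprived wild-type replicate 4 against 11 to 11.4 CPM. The no_feature share of stimulated wild-type replicate 2 was 9.3% against 10.3 to 10.7%.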

How the results depend on the processing

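The count of members called with IL3 was 22. It was 14 without a filter on low counts, 42 with the no_feature share as a covariate, 55 with the 2 groups alone, 83 with the replicate block and 5 at a threshold of 0.01; it was 47 without the 5 libraries above 13%, and 7 to 30 over the fits with 1 wild-type library left out (30 without stimulated replicate 1). RLE factors gave 21 and DESeq2 32. The slope count of 123 was 113 to 131 under no filter, RLE factors, DESeq2, the depth covariate, only the 3 groups with such libraries and without LSD1 knockdown replicate 1, 98 at 0.01, 99 to 128 with 1 library left out, and 10 without the 5 libraries, where the slope of Zfp369 was -0.0070. In the 4 knockdowns and in the no-target hairpin against wild type every alternative gave 0, leave-one-out fits (0 to 0) and the replicate block included, except DESeq2, which called 2 in the latter (Zfp831, adjusted p = 0.02, and Zfp661, 0.0398) and 1 with STAT5B (Zfp512, 0.00594). Blocked pairing elsewhere than in wild type rests on shared numbers alone and changed no call.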

Other observations

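Other zinc finger families were followed as lists beside the Zfp genes. With IL3, in the fit of all libraries, 3 of 38 Zbtb genes rose and 1 fell, and 1 of 10 Klf genes rose. Zbtb proteins join fingers to a BTB domain. The relatives with a SCAN domain fell where they were called: 1 of 8 Zscan and 2 of 9 Zkscan genes. Zfp rows tested under 5 CPM, which are not members, held 0 that rose and 4 that fell of 43, against 3% and 0.82% of all genes. With the no_feature share 22 of these 43 rose and 0 fell, and 21 of 38 Zbtb genes rose and 5 fell, against 24.9% of all genes that rose and 28% that fell. Over the 22 libraries of low share 3 of the 43 rose and 0 fell (background 2.04 and 2.35%). Of the 38 Zbtb genes 0 rose and 1 fell over those 22. With the replicate block, 4 of 10 Klf genes rose with IL3 and 3 fell, and 11 of 35 Zbtb genes rose and 5 fell. There 2 of 8 Zscan and 4 of 9 Zkscan genes fell and 0 rose. Of 40 Zfp rows under 5 CPM, 2 rose and 8 fell. Over all genes 13.3% rose and 9.09% fell. All of these are counts by edgeR's quasi-likelihood test over all genes, and no difference between families was tested.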
